A study of Mus musculus with 8 samples.

Results

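The transcripts described here encode 10 receptors for growth factors and cytokines that act on hepatocytes: *Egfr*, *Erbb3*, *Met*, *Fgfr4*, *Klb*, *Prlr*, *Lifr*, *Lepr*, *Il6ra* and *Il6st*. They were taken by symbol from a table of 24940 genes, in which each had 1 row, and all 10 were among the 12340 genes that passed the filter on low counts and were tested. Liver mRNA was sequenced from 4 FxrKO males and 4 Bcl6LKOFxrKO males of the C57BL/6 strain. All 8 mice carried floxed *Bcl6* and a whole-body deletion of *Fxr* (*Nr1h4*), the nuclear receptor for bile acids, and the Bcl6LKOFxrKO mice also carried Alb-Cre. The comparison asks how the loss of hepatocyte *Bcl6*, a transcriptional repressor, changed the liver of mice that already lacked FXR. Because the Albumin promoter drives Cre in hepatocytes and neither group had Cre alone, Cre and the loss of *Bcl6* cannot be told apart. No age was stated for the mice in the labels, and each value comes from the liver of 1 mouse.

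Receptors of this kind let circulating and local signals reach the hepatocyte. *Egfr*, *Erbb3* and *Met* are receptor tyrosine kinases of the epidermal and hepatocyte growth factor systems and signal mainly through the ERK and AKT kinases. *Fgfr4* with its co-receptor *Klb* receives FGF15, the intestinal hormone that lowers bile acid synthesis. *Prlr*, *Lifr*, *Lepr* and the interleukin 6 receptor chains *Il6ra* and *Il6st* (gp130) have no kinase of their own and signal through JAK kinases and STAT factors.

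The receptor transcripts moved in both directions in Bcl6LKOFxrKO livers. *Prlr*, the prolactin receptor, and *Lifr*, the receptor for leukemia inhibitory factor, were 13.9-fold and 6.20-fold higher than in FxrKO livers, whereas *Egfr* was 3.93-fold lower, *Met* 2.17-fold lower and *Fgfr4* 1.44-fold lower. The other 5 receptors were not called. Called means an adjusted p under 0.05 in the quasi-likelihood test of edgeR, with Benjamini-Hochberg correction over all 12340 genes. With this threshold 16.2% of all tested genes were called higher and 13.5% were called lower in Bcl6LKOFxrKO livers, against 2 and 3 of the 10 receptors. Under the 16 alternatives tried, *Prlr*, *Lifr*, *Egfr* and *Met* were called each time and *Fgfr4* in 12. The alternative with a log2 fold change beyond 0.5 only added that threshold to the main fit, so its values are those of the main fit.

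**Figure D1:**
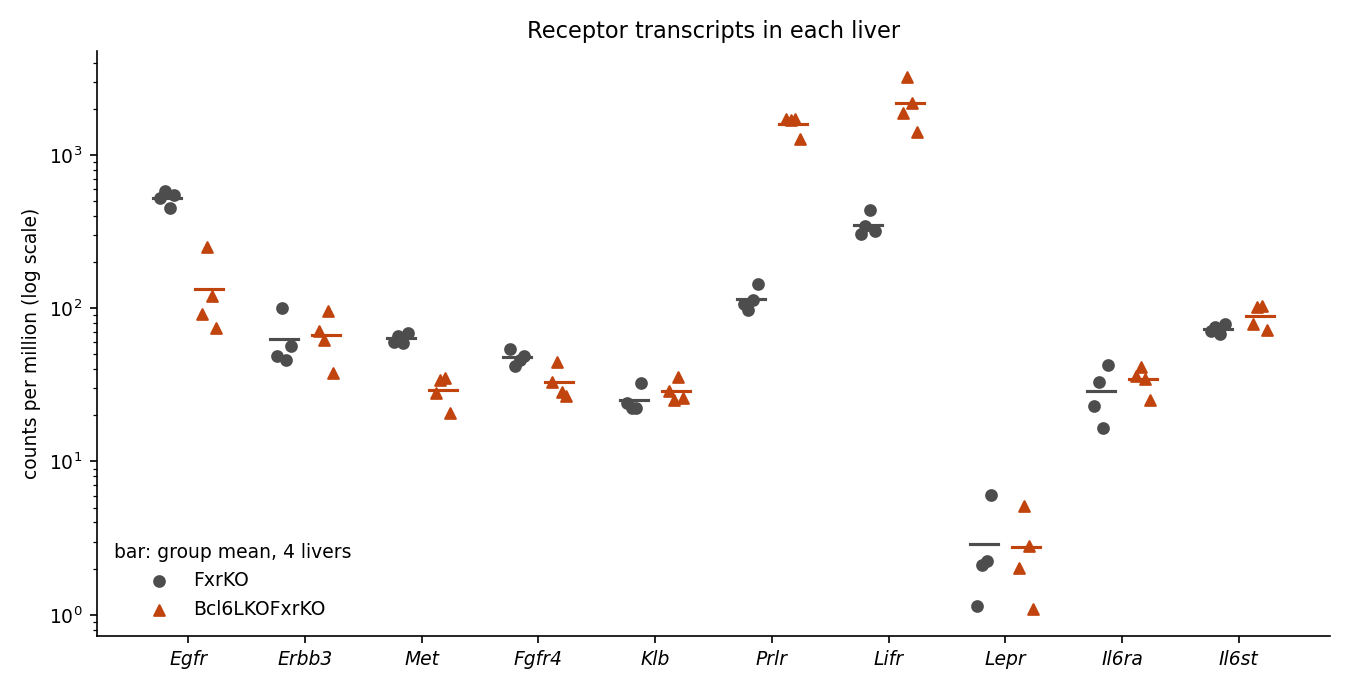
CPM, the counts scaled to a common library size, of the 10 receptors in each of 4 FxrKO livers (circles) and 4 Bcl6LKOFxrKO livers (triangles), on a log axis, with a bar at each group mean. The groups are apart for *Egfr*, *Met*, *Prlr* and *Lifr*, meet at 1 liver for *Fgfr4*, and overlap for the others.

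The livers carried between 7586241 and 11839503 counts on genes, and levels are given as CPM, the counts scaled to a common library size with TMM factors. At these depths 3 counts correspond to 0.253 to 0.395 CPM. *Lepr*, with 11 to 64 counts, was the only receptor with under 100 counts in any liver. The targeted gene *Bcl6* was at 56.3, 65.2, 21.2 and 55.6 CPM in FxrKO livers 1 to 4 and at 11.9, 4.61, 5.55 and 7.72 CPM in Bcl6LKOFxrKO livers 1 to 4, every one of them below every FxrKO liver. *Nr1h4* was still counted, at 56.7 to 62.6 CPM and 39.4 to 48.1 CPM (log2 fold change -0.46, edgeR adjusted p = 0.00497), and counts over a whole transcript do not show whether the deleted part was missing. Replicates of a genotype differed beyond sampling noise in all pairs, by a chi-square of 10 to 45.8 per degree of freedom. The 50 most counted genes held 29.8% to 31.2% of the counts in FxrKO livers and 40.7% to 44.1% in Bcl6LKOFxrKO livers, and the total counts, taken as the scale in place of TMM, shifted the log2 fold changes of all genes by a median of -0.16. Hepatocyte transcripts such as *Alb* were abundant in every liver. In whole liver, fewer cells of a type and less RNA per cell cannot be told apart.

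Some livers stood at the end of their group for many receptors at once. In Bcl6LKOFxrKO liver 4, 9 of the 10 receptors were at the lowest level of their group, with *Klb* the exception, and none was at the highest. Of all tested genes, 34.1% were lowest and 32.7% highest in that liver, the largest shares of the 4, so it was also the liver most often at an extreme overall. Bcl6LKOFxrKO liver 2 was highest for *Egfr*, *Fgfr4*, *Lifr*, *Lepr* and *Il6ra*. In the FxrKO group, liver 3 was lowest for 6 receptors and liver 4 highest for 6. These livers were noticed after the values were seen.

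The cytokine receptors that rose are shown first by the sequence at their start sites. The windows hold 250 bases before and 50 bases after a transcript start in RefSeq, build GRCm38.p6, which has the coordinates of mm10, and the table used here had 13 windows for 9 of the receptors, all but *Erbb3*. Each was searched on both strands for TTCCTAGAA (reverse complement TTCTAGGAA), the core of the site BCL6 binds, and for TTCNNNGAA, the spaced palindrome that STAT factors bind and of which the first motif is a special case. The window at the start of the counted *Prlr* transcript, chr15:10223656-10223955 on the plus strand, held the only match among the 13 to either motif, 110 bases before the start site. It is shown with the match in capitals.
Prlr: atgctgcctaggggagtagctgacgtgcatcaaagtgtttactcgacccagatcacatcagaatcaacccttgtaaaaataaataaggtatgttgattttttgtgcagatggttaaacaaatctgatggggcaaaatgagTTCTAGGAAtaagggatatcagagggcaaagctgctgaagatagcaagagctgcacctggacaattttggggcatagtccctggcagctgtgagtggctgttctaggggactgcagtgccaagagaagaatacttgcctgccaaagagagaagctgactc

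Of all 32851 windows, 135 (0.411%) held TTCCTAGAA and 2726 (8.30%) held TTCNNNGAA. Of the 43 tested genes with TTCCTAGAA in a window, 6 were called higher (14%) and 5 lower (11.6%), shares close to those of all genes tested. A match in such a window is a description of its letters and does not show that a factor bound there. The same windows differed in CpG dinucleotides. At the start of the transcript that was counted, *Prlr* had 2 CpG and *Lifr* 4, the fewest of the 9 receptors with a window, whereas *Klb* had 10, *Egfr* 15, *Lepr* 18, *Fgfr4* 20, *Il6ra* 25, *Il6st* 33 and *Met* 34, against a median of 7 over all windows. The receptors with a window that were not called had 10 to 33, and a link between CpG and a rise or fall was not tested. The windows of *Lifr* (chr15:7140292-7140591), *Egfr* (chr11:16751953-16752252) and *Met* (chr6:17463707-17464006) are shown with every CpG in capitals. Each is on the plus strand and around the start of the counted transcript, and they set a receptor that rose beside 2 that fell.
Lifr: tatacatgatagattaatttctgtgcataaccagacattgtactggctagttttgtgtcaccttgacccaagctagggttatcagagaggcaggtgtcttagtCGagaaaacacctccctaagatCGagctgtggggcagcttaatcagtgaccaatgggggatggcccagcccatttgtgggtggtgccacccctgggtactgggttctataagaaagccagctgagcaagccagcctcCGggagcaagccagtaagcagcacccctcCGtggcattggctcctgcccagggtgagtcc
Egfr: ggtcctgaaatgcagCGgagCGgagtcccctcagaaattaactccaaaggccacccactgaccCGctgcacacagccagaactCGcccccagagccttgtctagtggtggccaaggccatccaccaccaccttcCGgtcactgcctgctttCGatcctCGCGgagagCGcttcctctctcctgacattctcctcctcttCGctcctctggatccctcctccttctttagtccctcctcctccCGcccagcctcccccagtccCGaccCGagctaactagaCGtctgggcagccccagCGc
Met: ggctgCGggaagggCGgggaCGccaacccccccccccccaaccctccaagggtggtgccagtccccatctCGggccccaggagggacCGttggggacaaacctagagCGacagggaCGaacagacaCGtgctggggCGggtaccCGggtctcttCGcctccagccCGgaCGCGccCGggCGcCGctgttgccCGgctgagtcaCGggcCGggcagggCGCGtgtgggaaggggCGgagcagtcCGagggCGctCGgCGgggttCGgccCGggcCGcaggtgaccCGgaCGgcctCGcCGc

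*Lifr* has another start in RefSeq 10970 bases upstream, in a window with 53 CpG, and *Prlr* has others at distances of 46668 and 69745 bases with 8 and 4 CpG. Reads from these starts cannot be separated in a table with 1 value a gene, so which start was used in these livers was not tested.

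*Prlr*, the receptor for prolactin, which signals through JAK2 and STAT5 (NM_001253781, mm10 chromosome 15 from 10223906 to 10349180, plus strand, 10 exons), had the largest change of the receptors. It was at 106, 98.0, 114 and 144 CPM in the FxrKO livers and at 1721, 1689, 1713 and 1278 CPM in the Bcl6LKOFxrKO livers. Bcl6LKOFxrKO livers 1 to 3 were nearly equal, liver 4 was lower, and the lowest Bcl6LKOFxrKO liver was far above the highest FxrKO liver. Its log2 fold change was 3.79 (standard error, SE, 0.17, 95% interval 3.44 to 4.15, edgeR adjusted p = 4.88e-09), and of all tested genes 90 had a larger rise. The prolactin transcript *Prl* had no count in any liver. The gene has 7 coding transcripts in GENCODE M21, and receptor forms with long and short intracellular parts were not separated. Of its counted exons, 3 are shared with *Gm21973*, a gene model on the same strand.

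*Lifr*, which pairs with gp130 to receive leukemia inhibitory factor and related cytokines (NM_013584, chromosome 15 from 7140542 to 7197489, plus strand, 20 exons), was at 303, 341, 437 and 317 CPM in FxrKO livers and at 1878, 3206, 2190 and 1401 CPM in Bcl6LKOFxrKO livers. All Bcl6LKOFxrKO livers were above all FxrKO livers, and Bcl6LKOFxrKO liver 2 stood above the other 3. The log2 fold change was 2.63 (SE 0.23, 95% interval 2.13 to 3.14, edgeR adjusted p = 5.61e-06), and 2.37 without that liver. Mouse livers also make a soluble form of this receptor, and with 6 coding transcripts in GENCODE M21 the membrane and soluble forms were not separated.

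*Il6st*, or gp130, the signalling chain that LIFR and the interleukin 6 receptor share (NM_010560, chromosome 13 from 112464070 to 112506860, plus strand), was at 70.7, 75.2, 67.4 and 79.1 CPM in FxrKO livers and at 79.1, 102, 103 and 72.3 CPM in Bcl6LKOFxrKO livers. The groups overlapped, through Bcl6LKOFxrKO livers 1 and 4. Its log2 fold change of 0.28 (SE 0.13, edgeR adjusted p = 0.122) was not called, and without Bcl6LKOFxrKO liver 4 it was 0.37 and was called (edgeR adjusted p = 0.0254). The 95% interval of the difference was 0.000546 to 0.57 on the log2 scale.

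*Il6ra*, the chain that binds interleukin 6 (NM_010559, chromosome 3 from 89869324 to 89913196, minus strand), was at 23.0, 33.0, 16.6 and 42.7 CPM in FxrKO livers and at 36.1, 41.6, 34.4 and 25.2 CPM in Bcl6LKOFxrKO livers. The FxrKO livers spanned the whole range of the other group, and the log2 fold change of 0.25 (95% interval -0.34 to 0.83, edgeR adjusted p = 0.516) was not called. It was 0.052 without FxrKO liver 3 and 0.50 without FxrKO liver 4, and was not called in either case. Of the 10 exons of *Il6ra*, 1 overlaps *Gm42809* on the opposite strand, and the counting options name no strand.

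*Lepr*, the leptin receptor (NM_001122899, chromosome 4 from 101717407 to 101813667, plus strand), had the lowest level of the 10. It was at 1.14, 2.12, 2.26 and 6.06 CPM in FxrKO livers and at 2.01, 5.10, 2.82 and 1.09 CPM in Bcl6LKOFxrKO livers. Each group had 1 liver above its other 3, and the ranges overlapped. The log2 fold change was -0.13 with a 95% interval from -1.33 to 1.08 (edgeR adjusted p = 0.882). It was 0.55 without FxrKO liver 4 and -0.59 without Bcl6LKOFxrKO liver 2. With this spread between livers, neither the size nor the direction of a difference could be given. The gene has 4 coding transcripts in GENCODE M21, and receptor forms were not separated.

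**Figure D2:**
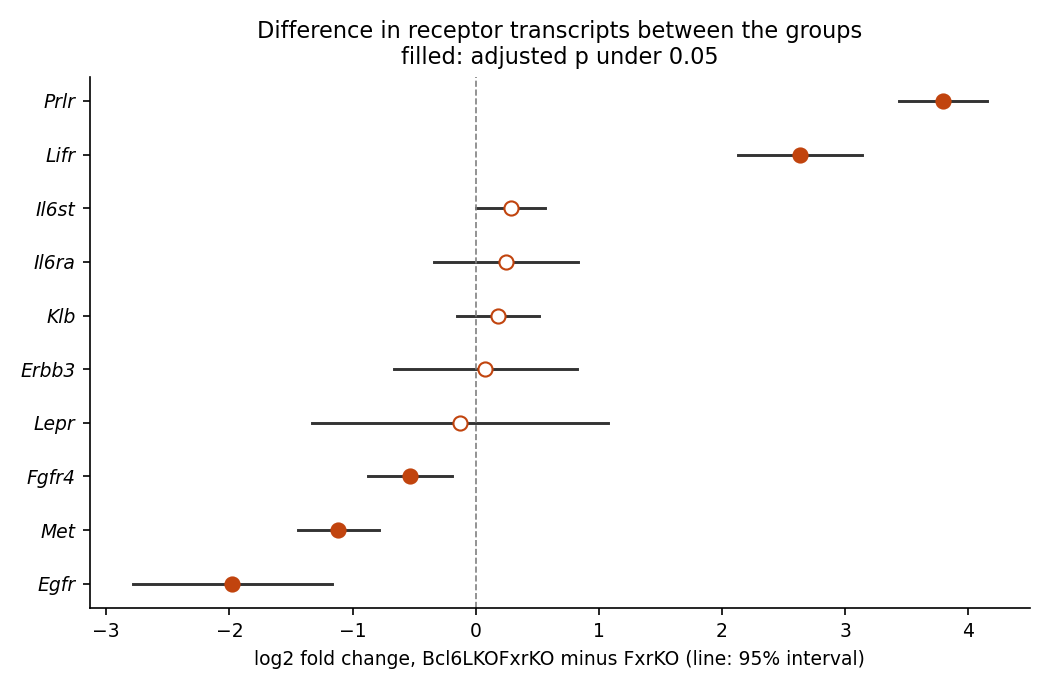
Log2 fold change of each receptor, Bcl6LKOFxrKO minus FxrKO, from edgeR, with its 95% interval as a line and filled points where the adjusted p was under 0.05. The values run from -1.97 for *Egfr* to 3.79 for *Prlr*, and the widest interval is that of *Lepr*.

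*Egfr*, the receptor for epidermal growth factor and transforming growth factor alpha (NM_207655, chromosome 11 from 16752203 to 16913907, plus strand, 28 exons), was at 525, 582, 453 and 548 CPM in FxrKO livers and at 91.9, 251, 119 and 74.5 CPM in Bcl6LKOFxrKO livers. Every Bcl6LKOFxrKO liver was below every FxrKO liver, and Bcl6LKOFxrKO liver 2 kept the most. In edgeR the log2 fold change was -1.97 (SE 0.36, 95% interval -2.79 to -1.16, edgeR adjusted p = 0.0035), and -2.48 without liver 2. Of all tested genes, 133 had a larger fall.

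*Met*, the receptor for hepatocyte growth factor (NM_008591, chromosome 6 from 17463957 to 17573980, plus strand, 22 exons), was at 59.9, 66.0, 59.5 and 69.1 CPM in FxrKO livers and at 28.0, 34.0, 34.9 and 20.8 CPM in Bcl6LKOFxrKO livers. The groups were apart, with the narrower spread in FxrKO livers. The log2 fold change was -1.12 (SE 0.15, edgeR adjusted p = 1.48e-04) and stayed between -1.27 and -0.98 under all 16 alternatives.

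*Erbb3*, a receptor of the same family as *Egfr* that binds neuregulins and has little kinase activity (NM_010153, chromosome 10 from 128569368 to 128589501, minus strand), was at 48.9, 100, 46 and 57 CPM in FxrKO livers and at 71.0, 61.9, 95.3 and 37.5 CPM in Bcl6LKOFxrKO livers. Both groups had 1 liver near 100 CPM and the ranges overlapped almost fully. In edgeR its log2 fold change of 0.079 (95% interval -0.66 to 0.82, edgeR adjusted p = 0.879) changed sign without FxrKO liver 1, FxrKO liver 3 or Bcl6LKOFxrKO liver 3 and with total counts as the scale, and was 0.39 without FxrKO liver 2.

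*Fgfr4*, the FGF15 receptor of hepatocytes (NM_008011, chromosome 13 from 55152818 to 55168759, plus strand, 18 exons), was at 54.3, 41.9, 46.1 and 48.8 CPM in FxrKO livers and at 33.2, 44.4, 28.2 and 26.8 CPM in Bcl6LKOFxrKO livers. Bcl6LKOFxrKO liver 2, at 44.4 CPM, was inside the FxrKO range and the other 3 were below it. The log2 fold change was -0.53 (SE 0.16, 95% interval -0.87 to -0.19, edgeR adjusted p = 0.0228). The call was lost without FxrKO liver 1 or 4 or Bcl6LKOFxrKO liver 1 or 3, where the adjusted p of edgeR was 0.0634, 0.0514, 0.0503 and 0.0610, while without Bcl6LKOFxrKO liver 2 the log2 fold change was -0.71 (edgeR adjusted p = 0.00232).

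*Klb*, or beta-Klotho, the co-receptor without which FGF15 does not engage FGFR4 (NM_031180, chromosome 5 from 65348411 to 65384003, plus strand), was at 24.2, 22.5, 22.2 and 32.4 CPM in FxrKO livers and at 28.7, 25.0, 35.4 and 26 CPM in Bcl6LKOFxrKO livers. The ranges overlapped, and the log2 fold change of 0.18 (95% interval -0.15 to 0.52, edgeR adjusted p = 0.408) was not called. It was 0.32 without FxrKO liver 4 and 0.067 without Bcl6LKOFxrKO liver 3, again without a call.

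To compare levels between receptors, CPM were divided by the length of the counted transcript. In FxrKO livers the highest mean level was that of *Egfr*, at 88.8 ± 9.23 CPM per kilobase (SD, n = 4), followed by *Lifr* at 36.3 ± 6.29 and *Prlr* at 29.5 ± 5.11, whose ranges overlapped. *Erbb3* at 15.8 ± 6.31 CPM per kilobase, *Fgfr4* at 15.3 ± 1.67 and *Il6st* at 13.5 ± 0.945 came next and could not be ordered beyond their spread. *Met* at 9.60 ± 0.704, *Il6ra* at 8.56 ± 3.40 and *Klb* at 7.38 ± 1.39 CPM per kilobase overlapped as neighbours likewise, and *Lepr* at 0.525 ± 0.392 was below all others.

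In Bcl6LKOFxrKO livers the order began with *Prlr* at 409.9 ± 55.1 CPM per kilobase (SD, n = 4) and *Lifr* at 224.9 ± 79.2, which overlapped in range, and the *Egfr* level of 22.6 ± 13.5 followed without overlap with *Lifr* and overlapped that of *Erbb3*. *Prlr* moved from place 1876 to place 161 among the 12340 tested genes by mean CPM per kilobase, *Lifr* from 1584 to 301 and *Egfr* from 734 to 2274. *Met*, at 4.44 ± 0.981 CPM per kilobase, fell below *Klb* without overlap, where its mean had been the higher in FxrKO livers. The levels of *Erbb3*, *Il6st*, *Fgfr4*, *Il6ra* and *Klb*, between 16.6 and 8.38 CPM per kilobase, overlapped from each to the next.

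**Figure D3:**
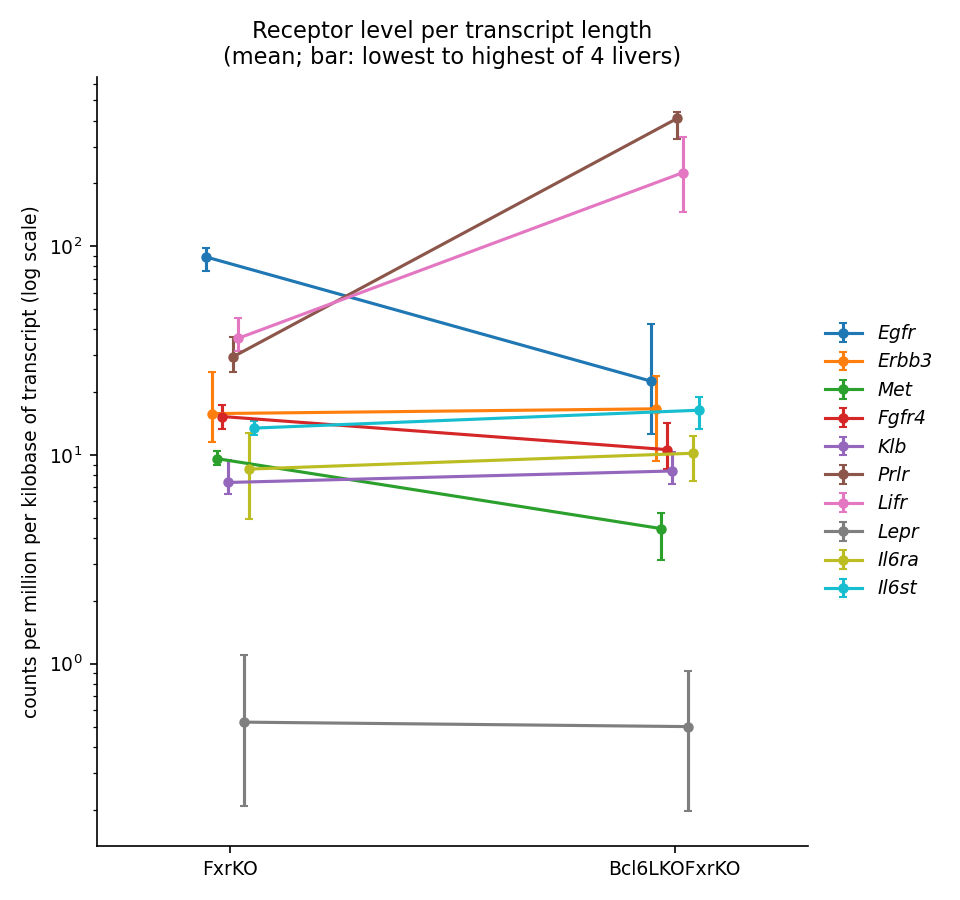
Mean level of each receptor in CPM per kilobase of the counted transcript, on a log axis, in FxrKO livers (left) and Bcl6LKOFxrKO livers (right), with bars from the lowest to the highest of 4 livers. The lines of *Prlr* and *Lifr* cross that of *Egfr*, which was the highest in FxrKO livers and was behind both in Bcl6LKOFxrKO livers.

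Summed over the 10 receptors, the level was 225.2 ± 15.8 CPM per kilobase in FxrKO livers and 724.5 ± 144 in Bcl6LKOFxrKO livers (SD, n = 4 each). *Prlr* and *Lifr* together made up 25.5% to 35.4% of the sum in FxrKO livers and 86.8% to 88.6% in Bcl6LKOFxrKO livers, and *Egfr* 36.3% to 41.6% and 2.16% to 4.80%. Without *Prlr* and *Lifr*, the sum of the other 8 was 159.4 ± 18.5 CPM per kilobase in FxrKO livers and 89.8 ± 23.1 in Bcl6LKOFxrKO livers. The highest Bcl6LKOFxrKO liver, at 116.5, was under the lowest FxrKO liver, at 135.7. Most of this sum in FxrKO livers was *Egfr*, with a mean of 88.8 CPM per kilobase there and 22.6 in Bcl6LKOFxrKO livers. The 8 did not fall together. *Met*, *Fgfr4* and *Lepr* also had lower means in Bcl6LKOFxrKO livers, and *Erbb3*, *Il6st*, *Il6ra* and *Klb* had higher ones, without a call.

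Chains that act together were compared as ratios of their CPM per kilobase within each liver, which do not depend on the scaling of the library. The ratio of *Lifr* to *Il6st* was 2.41, 2.56, 3.66 and 2.26 in FxrKO livers and 13.4, 17.7, 12 and 10.9 in Bcl6LKOFxrKO livers. The groups were apart, with means of 2.72 ± 0.636 and 13.5 ± 3.0 (SD, n = 4), and the two-sided exact permutation p was 0.0286, the smallest that 70 orderings of 8 livers can give. The ratio of *Egfr* to *Erbb3* was 7.22, 3.91, 6.62 and 6.47 in FxrKO livers and 0.870, 2.73, 0.843 and 1.34 in Bcl6LKOFxrKO livers. Every FxrKO liver had more *Egfr* than *Erbb3*, Bcl6LKOFxrKO livers 1 and 3 had less, and the groups did not overlap (exact permutation p = 0.0286). The ratio of *Fgfr4* to *Klb* was 2.11 ± 0.346 in FxrKO livers and 1.31 ± 0.459 in Bcl6LKOFxrKO livers (SD, n = 4), overlapped through Bcl6LKOFxrKO liver 2 at 1.95, and did not pass (exact permutation p = 0.0571). The ratio of *Il6ra* to *Il6st* was 0.625 ± 0.208 and 0.624 ± 0.0911 (SD, n = 4, exact permutation p = 0.83). Adjusted over the 4 ratios, the exact permutation p was 0.0571, 0.0571, 0.0762 and 0.83 in the order given, so none passed after adjustment.

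**Figure D4:**
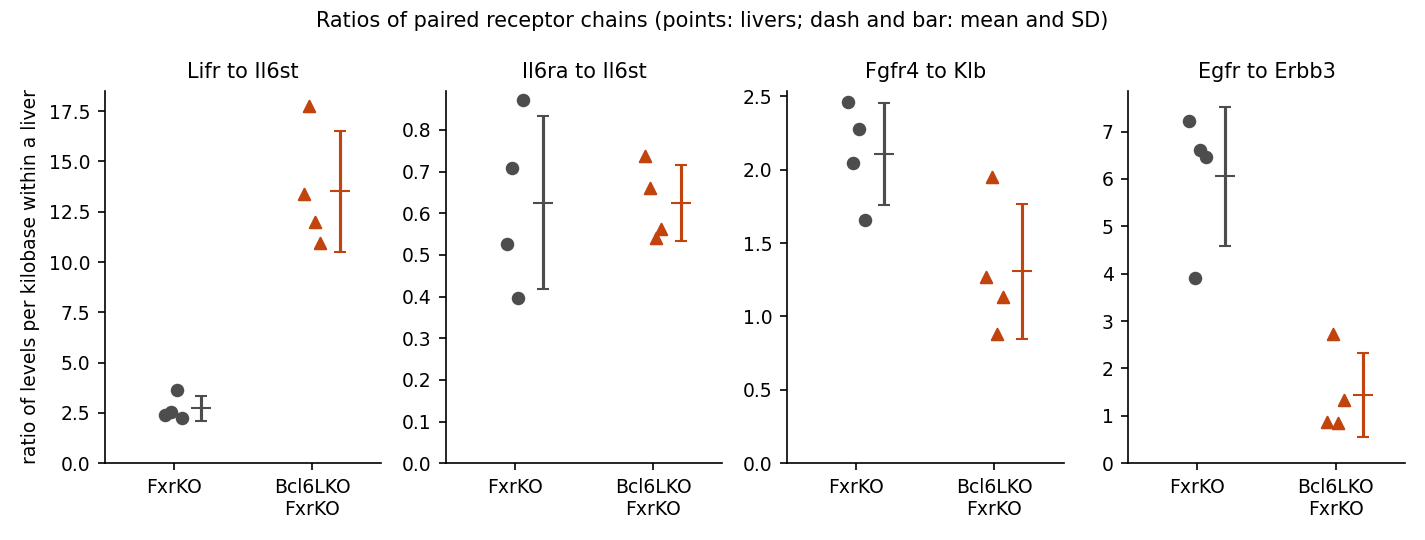
Ratios of receptor chains within each liver, in CPM per kilobase over CPM per kilobase, for 4 FxrKO livers (circles) and 4 Bcl6LKOFxrKO livers (triangles), with the mean and SD beside the points. *Lifr* to *Il6st* and *Egfr* to *Erbb3* are apart between the groups, *Fgfr4* to *Klb* meets at 1 liver, and *Il6ra* to *Il6st* has nearly the same mean in both.

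*Prlr* and *Lifr* lie 3.03 megabases apart on chromosome 15, on a stretch that also holds *Ghr*, the growth hormone receptor, and *Osmr*, the oncostatin M receptor. Between the start of *Ghr* at 3317755 and the end of *Prlr* at 10349180, 27 genes were tested, a stretch chosen after the values were seen. *Ghr* was at 373, 412, 458 and 441 CPM in FxrKO livers and at 2207, 1984, 2350 and 1571 CPM in Bcl6LKOFxrKO livers. It rose by 2.27 on the log2 scale (SE 0.15, edgeR adjusted p = 2.10e-07), without overlap. *Osmr* was at 3.22 to 5.41 CPM and 4.36 to 15.9 CPM and was not called (log2 fold change 0.83, edgeR adjusted p = 0.113). Apart from *Ghr*, *Lifr* and *Prlr*, 2 of the 24 other genes were called higher (8.33%) and 5 lower (20.8%), and their median log2 fold change was -0.084, against 16.2% and 13.5% of all tested genes. Among the 5 called lower, *C9*, *Ugt3a1* and *C6* had log2 fold changes of -3.35, -2.11 and -1.90. *C6* and *C9* are complement genes of the liver. *C7*, also a complement gene of this stretch, went the other way and was not called (log2 fold change 1.05, edgeR adjusted p = 0.143).

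Of a list of 18 related receptors and partner chains, 15 were tested. *Ghr*, *Fgfr2*, *Igf1r* and *Leprot* were called higher (26.7%) and *Insr* lower (6.67%), against 16.2% and 13.5% of all tested genes. The median log2 fold change of the 15 was 0.36, against 0.010 for all tested genes. *Igf1r*, the receptor for insulin-like growth factor, rose from 0.937 to 1.75 CPM in FxrKO livers to 3.18 to 3.88 CPM in Bcl6LKOFxrKO livers (log2 fold change 1.25, edgeR adjusted p = 0.00265). *Fgfr2*, another FGF receptor, rose by 0.87 on the log2 scale, from 18.8 to 30.6 CPM in FxrKO livers to 39.9 to 56.8 CPM. *Insr*, the insulin receptor, fell by 0.57 on the log2 scale, from 89.0 to 119 CPM in FxrKO livers to 61.7 to 82.1 CPM.

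Transcripts of the ligands were mostly rare in liver. Of 28 listed, 27 were in the table, 11 were tested, and 6 had no count in any liver, among them *Il6*, *Lep* and *Prl*. Of the 11 tested, 5 were called higher (45.5%) and 2 lower (18.2%), against 16.2% and 13.5% of all tested genes. Their median log2 fold change was -0.35, with 5 above 0 and 6 below, against 0.010 for all tested genes. *Egf* had 2 to 5 counts in FxrKO livers and 72, 23, 84 and 55 counts in Bcl6LKOFxrKO livers. It rose by 3.92 on the log2 scale (SE 0.43, edgeR adjusted p = 2.41e-05) and was highest in the group in which its receptor was lowest, although its level did not exceed 8.18 CPM. *Fgf21*, a hepatocyte hormone that signals through *Klb*, had 7, 1, 0 and 2 counts in FxrKO livers and 36, 17, 16 and 19 in Bcl6LKOFxrKO livers (log2 fold change 3.01, edgeR adjusted p = 0.00192). *Egf* and *Fgf21* passed the filter on low counts only through the Bcl6LKOFxrKO livers, and a ligand low in both groups could not be tested. At such counts in FxrKO livers the size of either rise is uncertain. The log2 fold change of *Fgf21* ran from 2.61 to 4.22 with each liver left out.

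*Hgf*, the ligand of *Met*, rose from 0.215 to 1.99 CPM in FxrKO livers to 2.36 to 3.80 CPM in Bcl6LKOFxrKO livers (log2 fold change 1.51, edgeR adjusted p = 0.0178). It had 2 to 21 counts in FxrKO livers and 25 to 39 in Bcl6LKOFxrKO livers, and it too passed the filter through the latter. *Clcf1*, a cytokine that acts through *Lifr* and gp130, rose from 1.29 to 3.64 CPM to 4.54 to 7.35 CPM (log2 fold change 1.51, edgeR adjusted p = 0.00223). *Mst1*, which encodes a protein related to hepatocyte growth factor, was the other ligand called higher, with a log2 fold change of 0.53, and was named after its values were seen. *Fgf1* fell from 69.2 to 93.6 CPM to 14.5 to 30.9 CPM (log2 fold change -1.90, edgeR adjusted p = 2.29e-05). *Tgfa*, a ligand of *Egfr*, fell by 0.54 on the log2 scale, a call lost without FxrKO liver 1 or Bcl6LKOFxrKO liver 3. Ligands under the filter included *Lif*, with 0 to 1 counts in FxrKO livers and 3 to 7 in Bcl6LKOFxrKO livers, *Osm*, with 0 to 1 and 2 to 5 counts, *Hbegf*, with 4 to 8 and 8 to 13 counts, *Ereg*, with 4 to 8 and 2 to 9 counts, *Nrg1*, with 0 to 6 and 6 to 11 counts, and *Fgf15*, with 1 count in 1 Bcl6LKOFxrKO liver. These counts are too low for a fold.

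Of 13 genes for proteases that release ligands or shed receptors, and their inhibitors, 5 were called higher (38.5%) and none lower in edgeR. Over all tested genes the shares were 16.2% and 13.5%. In the list 1 was lower at an unadjusted p under 0.05 in edgeR, and none was called lower in DESeq2 or limma voom. *Hgfac*, which activates hepatocyte growth factor, rose from 188 to 230 CPM in FxrKO livers to 346 to 405 CPM (log2 fold change 0.85, edgeR adjusted p = 1.1e-04). *St14*, the membrane protease matriptase, rose by 1.70 and *Rhbdf1*, a regulator of the sheddase ADAM17, by 1.19 on the log2 scale. *Timp3* and *Adam10* were also called higher and were named after their values were seen.

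Of 30 signal transducers tested, 3 were called higher (10%) and 3 lower (10%), against 16.2% and 13.5% of all tested genes, and the median log2 fold change was -0.060. *Stat3* was at 138 to 270 CPM in FxrKO livers and 154 to 252 CPM in Bcl6LKOFxrKO livers (log2 fold change -0.090, edgeR adjusted p = 0.765), and *Jak2* and *Stat5b* were not called either. *Gab2*, *Mapk3* (ERK1) and *Tyk2* rose by 0.90, 0.63 and 0.37, and *Pik3r1*, *Pik3cb* and *Sos1* had log2 fold changes of -0.69, -0.61 and -0.60. *Sos1* was called under 8 of 15 alternatives, and *Tyk2* and *Pik3cb* under 12 of 15 each. With total counts as the scale, 9 of the 30 were called lower.

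Of 27 tested feedback inhibitors of receptors and of STAT and ERK signals, 4 were called higher (14.8%) and 6 lower (22.2%), against 16.2% and 13.5% of all tested genes. *Socs2*, a STAT5-induced inhibitor of growth hormone and prolactin signals, was at 24.1, 8.75, 17.2 and 9.37 CPM in FxrKO livers and at 38.3, 86.8, 41.0 and 24.8 CPM in Bcl6LKOFxrKO livers. The groups were barely apart, and its log2 fold change was 1.67 (edgeR adjusted p = 0.0318), a call kept under 10 of 15 alternatives. *Cish*, also induced by STAT5, was at 5.20 to 21.1 CPM and 17.9 to 51.5 CPM and was not called (edgeR adjusted p = 0.137). *Spry1* and *Socs5* had log2 fold changes of 1.06 and 0.91. *Spry4*, *Spred1* and *Socs7*, which dampen receptor signals, had log2 fold changes of -1.02, -0.94 and -0.62. *Errfi1* (MIG6), which inhibits EGFR directly, was also called lower, from 998 to 1419 CPM in FxrKO livers to 484 to 1052 CPM in Bcl6LKOFxrKO livers (log2 fold change -0.75, edgeR adjusted p = 0.0369), and like *Cish* it was named after its values were seen.

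Transcripts known to follow receptor signals did not move as 1 group. Of 11 tested ERK response genes, 4 were called higher (36.4%) and none lower, against 16.2% and 13.5% of all tested genes. Their median log2 fold change was 0.86. *Egr1* rose from 6.99 to 22.8 CPM in FxrKO livers to 50.6 to 81.6 CPM (log2 fold change 2.34, edgeR adjusted p = 0.00131). *Ier3* and *Ccnd1*, the cyclin D1 gene, had log2 fold changes of 2.04 and 1.20, and *Jun*, named after its values were seen, had 1.83. At an unadjusted p under 0.05, 6 were higher and 1 lower in edgeR, which are also the counts called by DESeq2 and by limma voom. The 1 lower in edgeR was *Phlda1*, at 35.3 to 172 CPM in FxrKO livers and 13.4 to 43.6 CPM in Bcl6LKOFxrKO livers. Its log2 fold change was -1.79 (edgeR adjusted p = 0.0682), and it was named after its values were seen.

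Of 23 transcripts induced in liver by interleukin 6 family cytokines through STAT3, 3 were called higher (13%, against 16.2% of all tested genes) and none was called lower, and their median log2 fold change was 0.054. At an unadjusted p under 0.05, 1 was lower in edgeR, and limma voom called 1 lower and DESeq2 none. *Cp* (ceruloplasmin) rose by 2.14, *Itih4* by 1.55 and *Hpx* (hemopexin) by 0.84 on the log2 scale. *Saa1*, the serum amyloid gene, spread over more than a factor of 10 within each group, from 169 to 4049 CPM in FxrKO livers and from 63.5 to 1053 CPM in Bcl6LKOFxrKO livers, where liver 2 was the highest. That liver, the highest of its group for *Lifr* and *Egfr*, was also the highest for *Lcn2*, at 812 CPM against 127 to 188 CPM in the others, and without it 4 genes of the list were called lower. Its part in the receptor results is given by the values without it above.

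Among the FGF15 response genes, *Nr0b2* (SHP), a repressor of bile acid synthesis, was at 13.9, 16.6, 11 and 7.95 CPM in FxrKO livers and at 1.21, 1.33, 0.487 and 0.454 CPM in Bcl6LKOFxrKO livers. It fell by 3.85 on the log2 scale (SE 0.34, edgeR adjusted p = 4.14e-06). Whether FGFR4 or KLB had a part in this fall was not tested. *Cyp7a1*, the rate-limiting enzyme of bile acid synthesis, was at 89.7, 119, 412 and 478 CPM and at 434, 380, 558 and 262 CPM (log2 fold change 0.57, edgeR adjusted p = 0.50). FxrKO livers 3 and 4 were as high as the Bcl6LKOFxrKO livers and livers 1 and 2 were below them. *Cyp8b1*, the enzyme for cholic acid, had a log2 fold change of 0.22 (edgeR adjusted p = 0.423).

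**Figure D5:**
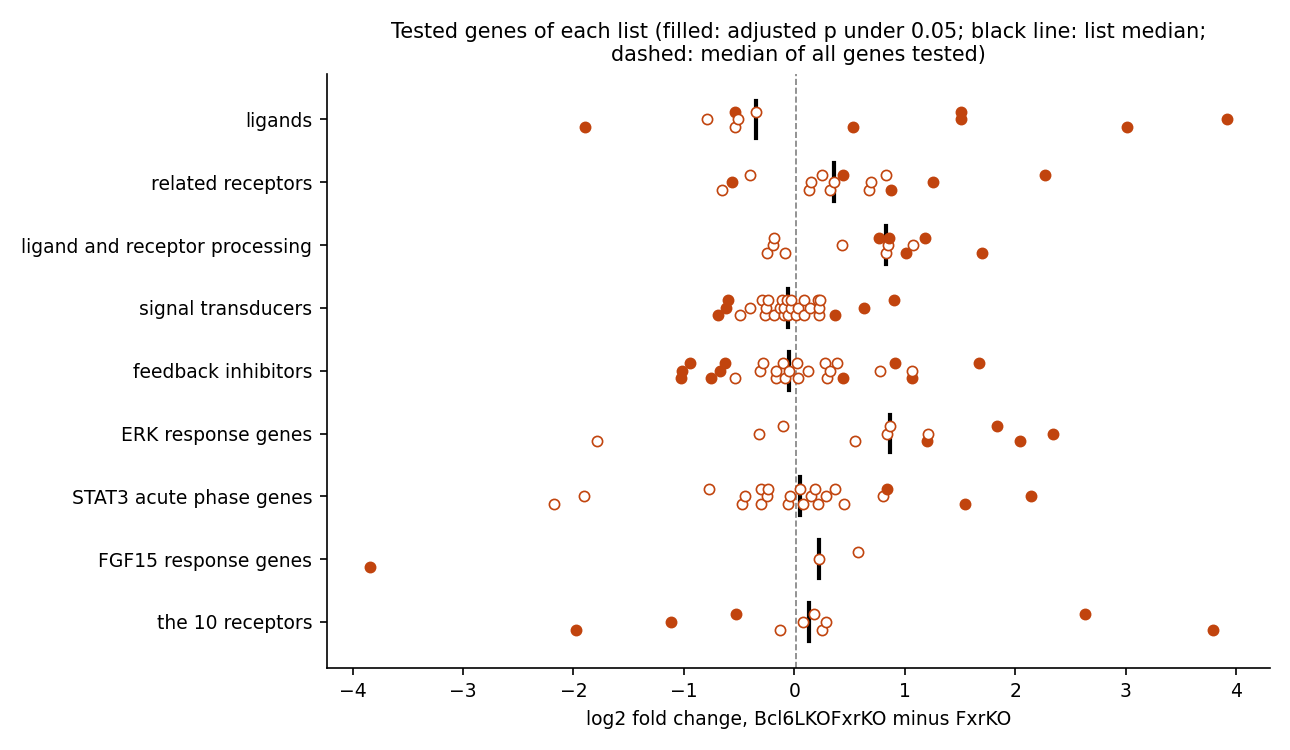
Log2 fold change, Bcl6LKOFxrKO minus FxrKO, of every tested gene in 8 lists around the receptors and of the 10 receptors, with filled points for an adjusted p under 0.05, a black line at each list median and a dashed line at the median of all tested genes. The 30 signal transducers have a median of -0.060 and 6 filled points, and the 10 receptors have filled points on both sides of 0.

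Markers of other liver cells were counted in the same way, beside 16.2% of all tested genes called higher and 13.5% lower. Of 12 stellate cell and fibroblast markers, all were tested and 9 were called higher, none lower, and their summed level was 266 to 365 CPM in FxrKO livers and 556 to 651 CPM in Bcl6LKOFxrKO livers. Of the endothelial markers 3 of 10 tested were called higher (30%), of the macrophage markers 2 of 10 (20%), of the cholangiocyte markers 3 of 7 (42.9%) and of the lymphocyte and neutrophil markers 2 of 3, with none called lower by edgeR and, at an unadjusted p under 0.05, 1 cholangiocyte marker lower. The cholangiocyte markers called higher were *Prom1*, from 0.537 to 1.62 CPM in FxrKO livers to 18.0 to 60.7 CPM in Bcl6LKOFxrKO livers (log2 fold change 4.99, edgeR adjusted p = 2.88e-04), *Spp1*, from 36.6 to 53.7 CPM to 66.2 to 123 CPM (2.01-fold), and *Krt19*, from 0.537 to 2.08 CPM to 1.66 to 3.09 CPM (2.43-fold), and no marker was at 0 in all livers. Of the hepatocyte markers 1 of 9 was called higher (*Alb*, by 1.60 on the log2 scale) and 2 lower, and *Hnf4a* was at 559 to 864 and 604 to 825 CPM. Stellate cells are a known source of *Hgf*, and the part of stellate cells, cholangiocytes and the other cells in the differences above was not tested.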

How the data were processed

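Liver RNA-seq of 4 FxrKO and 4 Bcl6LKOFxrKO males was grouped by the labels, and livers were numbered 1 to 4 within each group in the order of the deposit, with no pairing. The labels do not say whether mice shared a litter or a day. Per the methods, single-end reads were placed on mm10 by STAR 2.5.2, only where they had a single location. The authors then deposited raw exon counts from HOMER 4.10, which keeps a single transcript for a gene and gives its length in bases, used here for CPM per kilobase. TruSeq Stranded libraries were counted with no strand option named.

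The analysis used R 4.3.3 and edgeR 4.0.16, with filterByExpr, TMM factors, robust quasi-likelihood fits and Benjamini-Hochberg correction over 12340 genes, and was tested on simulated data. Ratios had two-sided exact permutation tests over 70 orderings. Alternatives were DESeq2 1.42.0, voom with sample quality weights (limma 3.58.1), size factors by RLE, scaling by total counts alone, TMM without the 50 most counted genes, all genes kept, only genes with 10 counts or more in each liver, a log2 fold change beyond 0.5 and the omission of each liver. For the lists, voom and RLE were added after seeing the data. Floors cover counting error only.

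The receptors and the 8 pathway and 6 marker lists were chosen with earlier results of these data known. Named were all 10 receptors, *Bcl6*, *Nr1h4*, the 3 smallest adjusted p in each direction of each pathway list, the FGF15 response genes and 9 ligands. Transcripts were matched to GENCODE M21. Start site windows were taken from RefSeq.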

Additional observations from a re-analysis of the deposited data

Results flagged for a closer look

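Of 90 groups of 4 livers compared for a single liver apart from the other 3, 2 were found, where chance would give about 4.5. *Prlr* was at 1278 CPM in Bcl6LKOFxrKO liver 4, below the 1689 to 1721 CPM of the other 3 livers, with a gap of 0.927 of the whole range of the group. Without that liver the log2 fold change of *Prlr* was 3.89, against 3.79 with it. *St14* was at 1.46 CPM in FxrKO liver 1, above the 0.625 to 0.757 CPM of the other 3, with a gap of 0.841 of the range.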

How the results depend on the processing

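Of the values of the 10 receptors under alternatives, 148 kept their direction and their side of the threshold, 7 turned direction, 4 lost the call and 1 gained it. The 148 include those under the threshold of 0.5 on the log2 fold change, which repeat the main fit. *Erbb3* had a log2 fold change of -0.070 with total counts alone and from -0.15 to 0.39 with each liver left out. *Lepr* had 0.079 with limma voom and from -0.59 to 0.55 with each liver left out. None of these was called, and each main value was close to 0. *Fgfr4* lost its call in 4 of the 8 fits without a liver (-0.71 to -0.44), where fewer livers were used, and *Il6st* was called without Bcl6LKOFxrKO liver 4 (range 0.20 to 0.37). The log2 fold change ranged from 3.64 to 3.92 for *Prlr*, 2.37 to 2.79 for *Lifr*, -2.48 to -1.77 for *Egfr* and -1.27 to -0.98 for *Met*. The log2 differences in 3 ratios kept their direction, at 2.17 to 2.46 for *Lifr* to *Il6st*, -0.95 to -0.56 for *Fgfr4* to *Klb* and -2.57 to -2.0 for *Egfr* to *Erbb3* with each liver left out, and that in *Il6ra* to *Il6st* turned, at -0.15 to 0.23. No p was computed for the ratios with a liver left out. Of the list counts, 175 stayed within 1.5 times the main count and 17 did not. With total counts alone, which lowers all log2 fold changes by a median of 0.16, the genes called lower became 2 of the related receptors (1 with TMM), 9 of the signal transducers (3), 2 of the processing genes (0), 1 of the ERK response genes (0) and 1 of the STAT3 genes (0), and the share of higher calls among all calls was 32.3%, against 51.7% to 57% under the other alternatives. DESeq2 called 1 ERK response gene lower, and limma voom 1 ERK response gene and 1 STAT3 gene. With each liver left out, between 1 and 3 ligands, 1 and 4 signal transducers, 0 and 1 ERK response genes and 0 and 4 STAT3 genes were called lower, and 2 to 4 feedback inhibitors higher. Of 490 values of the 33 other named genes with a call, 22 lost it and 468 kept it: *Sos1* in 7 alternatives, *Socs2* in 5, *Tyk2* and *Pik3cb* in 3 each, *Tgfa* in 2 and *Socs5* and *Spry4* in 1. *Cyp7a1* and *Cyp8b1* had no call under any. The cause was not tested.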
